A study of Mus musculus with 90 samples.

Results

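In mouse liver, 1376 of 10446 listed GR peaks and 733 of 8546 listed FOXO1 peaks overlapped neither a peak of the other factor nor a DNase I hypersensitive site (DHS). They are called DHS-free GR peaks and DHS-free FOXO1 peaks below. They made up 13.2% of the GR peaks (95% Wilson interval 12.5 to 13.8), 8.58% of the FOXO1 peaks (8 to 9.19) and 2109 (11.1%) of all 18992 peaks. The choice used positions only, and 1 shared base counted as overlap. The other GR peaks were 3972 unshared peaks in DHSs, 545 shared peaks outside DHSs and 4553 shared peaks in DHSs. The other FOXO1 peaks numbered 2715, 554 and 4544 in the same order.

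The peaks were called by ChIP-seq on livers of wild-type male C57BL/6 mice (C57BL/6N in the study's methods), 10 weeks old, on night-restricted feeding (NRF) and without food until ZT14, which is 2 h after lights went off. Each factor had 2 replicates, with livers of 3 to 4 mice pooled for GR and of 3 mice for FOXO1, and the lists hold the peaks found in both. The 83592 DHSs come from DNase-seq with 60 U or 80 U of DNase on livers of fed and unfed mice, read together. The lists give positions without heights, so no peak has a replicate error, and intervals over peaks cover counting error only. Peaks are not replicates of a condition.

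RNA was compared between groups of 4 mice, all on NRF and all taken at ZT14. Wild-type mice were injected 30 min before ZT12 with vehicle (PBS), with dexamethasone (dex, a synthetic glucocorticoid, 1 mg/kg) or with S961 (an insulin receptor antagonist, 44 nM per mouse in the labels, 44 nmol/kg in the study's methods). They were fed from ZT12, apart from 1 vehicle group that stayed unfed. A further fed group received both dex and S961. It entered the shared fit of the injected mice and is not compared here. L-GRKO mice carried Nr3c1 fl/fl and received a virus with CRE under the hepatocyte promoter Tbg, their controls the same alleles and a GFP virus, and both groups were unfed. L-IRSdKO mice carried Irs1 fl/fl, Irs2 fl/fl and Alb-Cre, their controls the floxed alleles without Cre, and both groups were fed and had received dex. The labels give both lines a C57BL/6 background, and the methods give C57BL/6N for the Nr3c1 line and C57BL/6J for L-IRSdKO. The virus was given 2 weeks (labels) or 12 days (methods) before NRF. Each RNA sample was the liver of 1 mouse. The library numbers in the labels put mouse 4 of each injected group in another library series than mice 1 to 3.

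GR, encoded by Nr3c1, is a nuclear receptor that binds glucocorticoids, enters the nucleus and occupies palindromic glucocorticoid response elements (GREs). In the liver it is known for inducing enzymes of gluconeogenesis and amino acid breakdown. FOXO1 is a forkhead factor that is held in the cytoplasm after insulin signaling through IRS1, IRS2 and AKT, and that drives glucose production genes when insulin is low. Both factors are known mostly from accessible chromatin, which DNase I cuts.

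The following DHS-free GR peaks are shown because each lay near a gene whose RNA changed and held a full GRE. The capitals mark the match to GNACA, any 3 bases, then TGTNC, on either strand. Each is given on the plus strand of mm9, and none overlapped an annotated exon.
Fam107a, chr14:9142315-9142494: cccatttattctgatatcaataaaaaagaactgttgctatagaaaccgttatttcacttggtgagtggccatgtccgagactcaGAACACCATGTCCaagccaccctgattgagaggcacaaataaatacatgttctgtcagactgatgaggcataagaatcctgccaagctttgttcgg
Spp1, chr5:104831752-104831931: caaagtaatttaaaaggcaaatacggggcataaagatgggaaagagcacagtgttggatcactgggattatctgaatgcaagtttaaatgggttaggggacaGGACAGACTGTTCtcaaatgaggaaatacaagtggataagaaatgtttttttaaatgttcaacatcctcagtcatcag
Chac1, chr2:119181375-119181554: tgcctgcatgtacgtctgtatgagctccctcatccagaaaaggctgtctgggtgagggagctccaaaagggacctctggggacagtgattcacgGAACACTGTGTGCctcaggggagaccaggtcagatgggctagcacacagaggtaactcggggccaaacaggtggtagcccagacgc
Atp1b1, chr1:166391164-166391343: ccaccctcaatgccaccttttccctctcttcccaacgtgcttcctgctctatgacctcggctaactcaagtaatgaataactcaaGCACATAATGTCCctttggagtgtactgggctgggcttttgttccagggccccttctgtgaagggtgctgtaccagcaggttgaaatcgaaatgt
Mxd1, chr6:86651507-86651686: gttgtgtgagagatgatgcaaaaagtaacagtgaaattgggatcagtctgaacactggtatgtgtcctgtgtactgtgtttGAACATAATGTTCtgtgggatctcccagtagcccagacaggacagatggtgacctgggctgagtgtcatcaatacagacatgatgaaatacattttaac

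The peak at Fam107a lay 6 bases from a TSS of that gene, the peaks at Atp1b1 and Chac1 lay 2.68 kb upstream and 4.41 kb downstream of the TSS, and the peaks at Spp1 and Mxd1 lay 32.2 and 32.4 kb upstream. All but the peaks at Fam107a and Mxd1 were intergenic, and the latter lay in an intron of Gmcl1. The nearest DHS was 9 bases from the peak at Fam107a and 2315 bases from the peak at Atp1b1.

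The following DHS-free FOXO1 peaks are shown by the same rule. The capitals mark the forkhead (FOX) site GTAAACA or its reverse complement.
Arrdc3, chr13:81025456-81025635: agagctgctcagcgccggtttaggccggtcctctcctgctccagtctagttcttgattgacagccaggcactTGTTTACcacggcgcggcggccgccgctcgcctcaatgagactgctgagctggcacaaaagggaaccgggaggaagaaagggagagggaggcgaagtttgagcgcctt
Leap2, chr11:53238345-53238524: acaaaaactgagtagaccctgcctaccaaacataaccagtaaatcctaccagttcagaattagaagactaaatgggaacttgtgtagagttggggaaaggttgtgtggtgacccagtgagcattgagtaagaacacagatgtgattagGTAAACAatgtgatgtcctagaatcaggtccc
Nrp1, chr8:130911191-130911370: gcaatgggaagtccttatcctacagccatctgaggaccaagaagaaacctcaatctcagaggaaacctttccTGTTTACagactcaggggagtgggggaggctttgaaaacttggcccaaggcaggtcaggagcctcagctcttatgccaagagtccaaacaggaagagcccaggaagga
Ppfibp2, chr7:114740344-114740523: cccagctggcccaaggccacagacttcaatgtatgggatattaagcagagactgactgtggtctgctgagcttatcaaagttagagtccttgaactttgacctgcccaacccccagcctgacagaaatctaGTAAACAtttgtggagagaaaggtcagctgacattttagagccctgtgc
2610507I01Rik, chr11:58977310-58977489: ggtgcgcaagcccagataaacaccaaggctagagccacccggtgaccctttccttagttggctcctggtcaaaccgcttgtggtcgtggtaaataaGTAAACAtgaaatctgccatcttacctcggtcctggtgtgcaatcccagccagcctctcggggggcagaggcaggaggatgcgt

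The peak at Arrdc3 lay 100 bases downstream of a TSS, inside the gene. The peak at Leap2 lay 1.67 kb upstream of the TSS. The peaks at Nrp1 and Ppfibp2 lay inside those genes, 28.2 and 1.78 kb downstream of their TSSs. The peak 38.4 kb downstream of 2610507I01Rik lay within 2 kb of the TSS of another gene.

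The DHS-free GR peaks outside exons with exactly 1 full GRE that lay farthest from any DHS, with 1 chromosome left out, had the following 25 bases around the match (capitals). They are shown as sites far from any listed DHS.
chr3:156196435-156196459: cagcaaGTACAGTTTGTACtacttg
chr1:161502121-161502145: tctgaaGAACAAAATGTTCcagagc
chr5:111503288-111503312: cagccgGAACATTGTGTTCacgcag
chr12:90398039-90398063: aattcaGTACACTGTGTTCcgggag
chr19:37167897-37167921: tgccaaGGACACAGTGTTCctgcta

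The peaks with these sites lay 260536, 130589, 41620, 24928 and 15014 bases from the nearest DHS. The peaks on chromosomes 3 and 1 were intergenic and the others were in introns. The corresponding DHS-free FOXO1 peaks held the following FOX sites (capitals).
chr3:39194410-39194434: gacttccaaGTAAACAgctgcacat
chr6:64567654-64567678: tgactctgcTGTTTACaggaataca
chr1:51193724-51193748: ccaaggaggGTAAACAggaactcta
chr15:64017521-64017545: tcggagcggGTAAACAggaagtgct
chr2:164257760-164257784: ctcgttcttGTAAACAaccaggtgc

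These FOXO1 peaks lay 74619, 32110, 28840, 9841 and 8387 bases from the nearest DHS, 1 between genes and 4 in introns.

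Most DHS-free peaks lay close to a DHS, and the FOXO1 peaks lay closer than the GR peaks. The median distance to the nearest DHS was 473 bases for GR (quartiles 71 to 1682, range 1 to 260536) and 162 bases for FOXO1 (34 to 1347, range 1 to 148221), where 1 means that the peak abuts the DHS. Within 100 bases of a DHS lay 28.6% of the GR peaks and 44.2% of the FOXO1 peaks, a difference of -15.6 percentage points (Newcombe 95% interval -19.9 to -11.3). Within 500 bases lay 51% and 62.6%, a difference of -11.6 points (-15.9 to -7.17). At 5000 bases the shares were 96.4% and 95%, and the interval of the difference held 0 (1.49 points, -0.275 to 3.51). Only 49 GR peaks and 37 FOXO1 peaks were more than 5000 bases from every DHS.

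**Figure D1:**
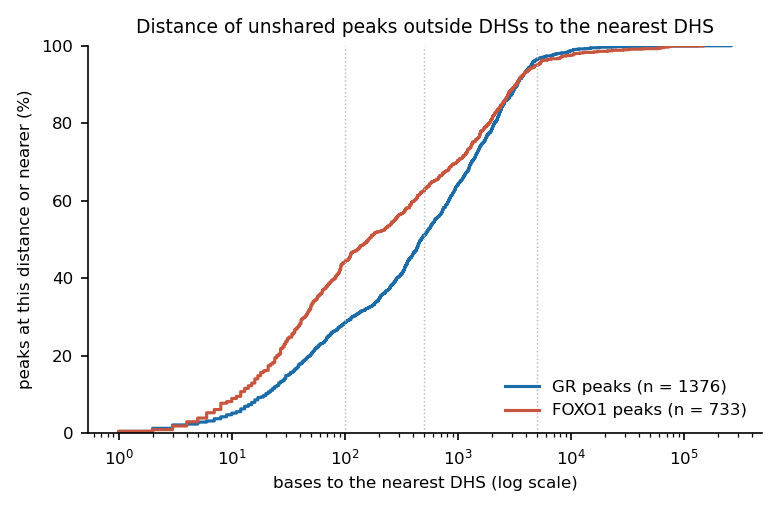
Share of DHS-free GR and FOXO1 peaks (vertical axis, %) at or below each distance to the nearest DHS (horizontal axis, bases, log scale). The FOXO1 curve runs above the GR curve at short distances, with 44.2% against 28.6% at 100 bases, and the curves meet near 5000 bases, at 95% and 96.4%.

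The nearest DHS of most DHS-free peaks held no listed peak, which was also true of most DHSs. Of the 702 DHS-free GR peaks within 500 bases of a DHS, 588 (83.8%) had a nearest DHS without any GR or FOXO1 peak, and of the 459 such FOXO1 peaks 388 (84.5%). Within 5000 bases the nearest DHS was without a peak for 68.8% of the GR peaks and 77.2% of the FOXO1 peaks. Over all DHSs, 11303 (13.5%) held a peak of either factor. Nearest DHSs within 500 bases held a peak at close to this share, and those within 5000 bases more often. The nearest peak of the other factor lay at a median of 10246 bases from DHS-free GR peaks and 24188 bases from unshared GR peaks in DHSs. For FOXO1 the medians were 16209 and 32258 bases. Within 5000 bases of a FOXO1 peak lay 38.8% of the DHS-free GR peaks. The nearest peak of the same list lay at a median of 5870 bases for GR and 17841 bases for FOXO1.

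The rule places its line at 1 shared base. Just outside the DHSs, at 1 to 10 bases, lay 72 DHS-free GR peaks, of which 8 (11.1%) held a full GRE, and 81 unshared GR peaks had 1 to 10 bases inside a DHS, of which 5 (6.17%) did. For FOXO1 the FOX site was in 13 of 66 (19.7%) just outside and in 15 of 67 (22.4%) just inside.

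The 2 groups of peaks lay in different places of the genome. Within 2 kb of a TSS (GENCODE annotation of mm9) lay 368 (26.7%) of the DHS-free GR peaks and 314 (42.8%) of the DHS-free FOXO1 peaks, a difference of -16.1 points (-20.4 to -11.8). Introns held 39% of the GR peaks and 28% of the FOXO1 peaks, a difference of 11.1 points (6.85 to 15.1). Intergenic DNA held 31.8% and 28.4%, and exons 2.4% and 0.819%.

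Compared with the other peaks of the same factor, the DHS-free GR peaks were more often at a TSS than unshared GR peaks in DHSs (16.7%, a difference of 10 points, 7.46 to 12.7) and than shared GR peaks in DHSs (15.7%, a difference of 11 points, 8.5 to 13.6). Against the shared GR peaks outside DHSs (22.8%) the interval of the difference held 0 (3.99 points, -0.353 to 8.09). The DHS-free FOXO1 peaks differed from the shared classes. Their share at a TSS exceeded that of shared FOXO1 peaks outside DHSs (22.2%) by 20.6 points (15.6 to 25.5) and that of shared FOXO1 peaks in DHSs (15.8%) by 27.1 points (23.4 to 30.8), whereas it differed from that of unshared FOXO1 peaks in DHSs (40%) by 2.8 points with an interval that held 0 (-1.19 to 6.85). Of all DHSs, 24.6% lay within 2 kb of a TSS.

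**Figure D2:**
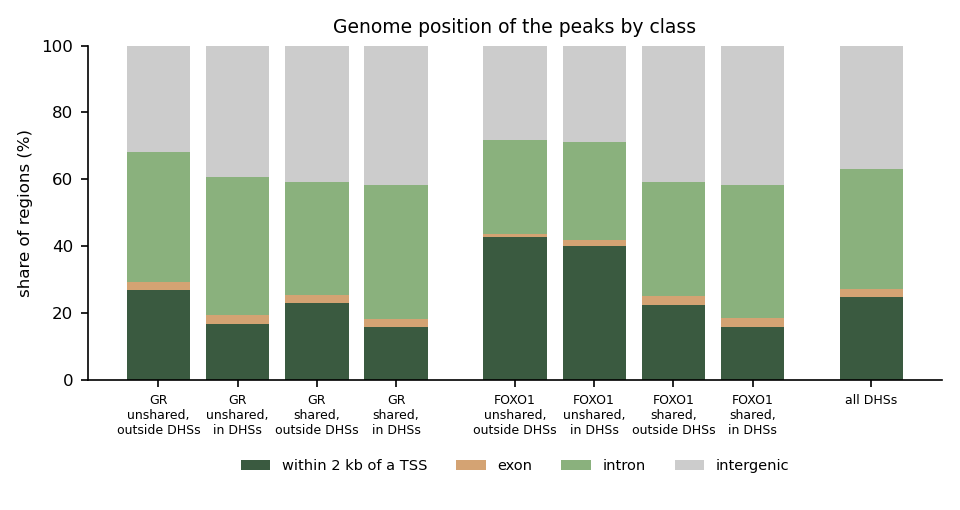
Share of peaks (vertical axis, %) within 2 kb of a TSS, in exons, in introns and between genes, for the 4 classes of GR and FOXO1 peaks and for all DHSs. The TSS share is 26.7% for DHS-free GR peaks and 42.8% for DHS-free FOXO1 peaks, against 15.7% and 15.8% for the shared peaks in DHSs.

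The TSS share changed with the distance to a DHS. Of the FOXO1 peaks, 51.9% of those within 100 bases, 50.4% of those farther but within 500 bases, 30.4% of those farther but within 5000 bases and 16.2% of the rest lay within 2 kb of a TSS. For GR the shares were 25.4%, 32.7%, 25.9% and 10.2%. The median GC content of the 200 bases around the peak centre was 46.5% for GR and 49% for FOXO1, with medians of 2 and 3 CpG. From the nearest to the farthest distance range the median GC content was 46%, 47%, 46.5% and 48% for GR and 50.5%, 49.5%, 48.5% and 48% for FOXO1. Chromosome 4 held the most DHS-free GR peaks, 114 of its 752 GR peaks, and chromosome 6 the most DHS-free FOXO1 peaks, 53 of its 552 FOXO1 peaks.

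The full GRE was the sequence that set the DHS-free GR peaks apart. It was present in the 200 bases around the centre of 277 of 1376 (20.1%, 18.1 to 22.3), against 6.09% of unshared GR peaks in DHSs, 11% of shared GR peaks outside DHSs and 5.25% of shared GR peaks in DHSs. The differences were 14 points (11.9 to 16.3), 9.12 points (5.57 to 12.3) and 14.9 points (12.7 to 17.2). Of all DHSs, 0.668% held it, and of the DHS-free FOXO1 peaks 7 (0.955%). The half-site AGNACA was in 70.3% of the DHS-free GR peaks and in 65% of unshared GR peaks in DHSs (5.37 points, 2.5 to 8.16). The 5 bases GAACA were in 63.4% and 55.3% (8.06 points, 5.06 to 11). None of these forms, which can overlap each other, was found in 15.6% of the DHS-free GR peaks and 20.7% of unshared GR peaks in DHSs. The 2 short forms are common in any sequence. AGNACA was in 46.2% of all DHSs and 46.2% of DHS-free FOXO1 peaks, and GAACA in 36.9% and 38.5%.

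The DHS-free FOXO1 peaks held the FOX site GTAAACA more often than the other FOXO1 peaks. It was in 245 of 733 (33.4%, 30.1 to 36.9), against 24.3% of unshared FOXO1 peaks in DHSs, 20.9% of shared FOXO1 peaks outside DHSs and 14.1% of shared FOXO1 peaks in DHSs. The differences were 9.08 points (5.37 to 12.9), 12.5 points (7.6 to 17.2) and 19.3 points (15.8 to 22.9). Of all DHSs 5.16% held it, and of the DHS-free GR peaks 3.2%. The variant GTAAATA was in 5.73%, against 6.22%, 9.21% and 8.43% of those classes, with intervals below 0 for both shared classes (-6.54 to -0.602 and -4.39 to -0.625). The core AAACAA was in 37.4%, against 33.5%, 37.4% and 36.8%, with intervals that held 0. Of all DHSs, 24.6% held this core. Counting also the variant GTAAATA and the core AAACAA, which can overlap GTAAACA, 42% of the DHS-free FOXO1 peaks and 49.9% of unshared FOXO1 peaks in DHSs held no listed form. A full GRE and a FOX site stood together in 8 DHS-free GR peaks and 1 DHS-free FOXO1 peak.

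**Figure D3:**
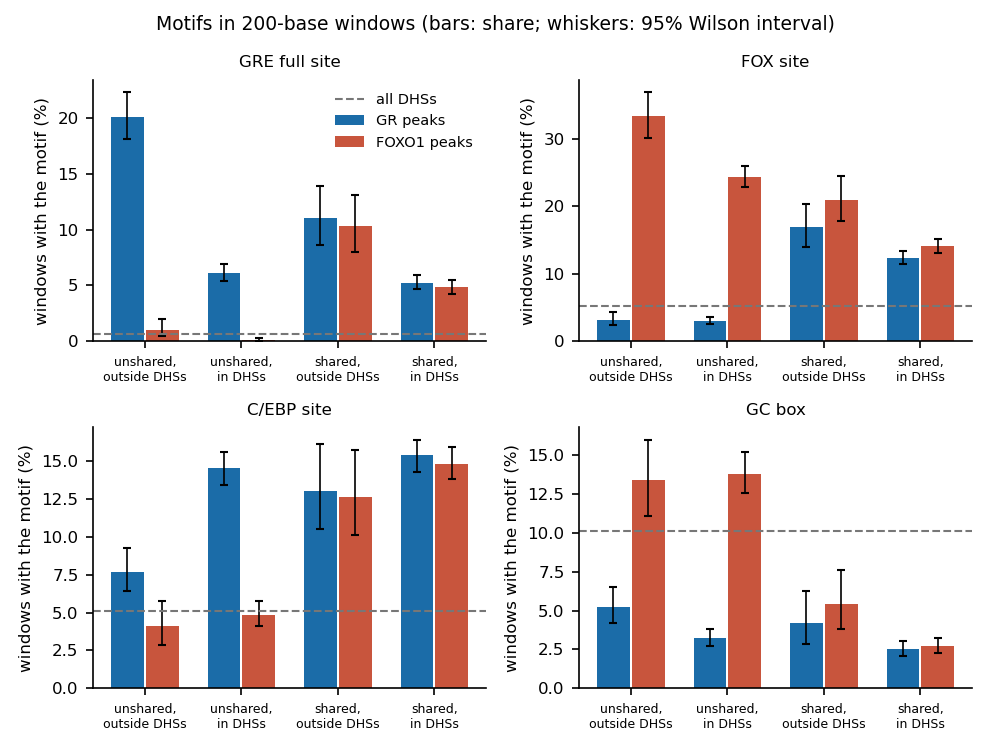
Share of 200-base windows with the full GRE, the FOX site, the C/EBP site and the GC box (vertical axes, %) in the 4 classes of GR and FOXO1 peaks (bars, with 95% Wilson intervals as whiskers) and in all DHSs (dashed line). The full GRE is in 20.1% of DHS-free GR peaks against 6.09% of unshared GR peaks in DHSs, and the FOX site in 33.4% of DHS-free FOXO1 peaks against 24.3%.

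C/EBP and HNF6 sites were less frequent in DHS-free GR peaks than in unshared GR peaks in DHSs. The C/EBP site (TTGC, any base, then CAA), bound by a family of liver-enriched factors, was in 7.7%, against 14.5% of unshared GR peaks in DHSs (a difference of -6.77 points, -8.49 to -4.91) and 5.13% of all DHSs. The site ATTGATT of HNF6, another liver factor, was in 7.12% against 11.6% (-4.51 points, -6.13 to -2.74), but against shared GR peaks outside DHSs (8.07%) and all DHSs (6.63%) the intervals held 0. The intervals also held 0 against unshared GR peaks in DHSs for the FOX site (3.2% and 2.97%), the nuclear receptor half-site (23% and 24.5%), the STAT site (1.74% in both) and the AP-1 site (6.83% and 8.38%). In the DHS-free FOXO1 peaks the C/EBP site was in 4.09% against 4.86% (-0.769 points, -2.26 to 1.08).

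In the DHS-free FOXO1 peaks, the GC box GGGCGG, a site of SP factors, was in 13.4%, against 5.42% of shared FOXO1 peaks outside DHSs (7.95 points, 4.78 to 11.1), 2.71% of shared FOXO1 peaks in DHSs (10.7 points, 8.33 to 13.4) and 10.1% of all DHSs, and it was in 13.8% of unshared FOXO1 peaks in DHSs. Within 2 kb of a TSS 24.8% of the DHS-free FOXO1 peaks held it and elsewhere 4.77% (20.1 points, 15 to 25.4). The ETS site CCGGAAG was in 8.92% and 2.15% (6.77 points, 3.5 to 10.6). The nuclear receptor half-site AGGTCA went the other way, with 15% at a TSS and 32.5% elsewhere (-17.5 points, -23.3 to -11.4). The FOX site was in 29.9% at a TSS and 36% elsewhere, with an interval that held 0 (-6.1 points, -12.8 to 0.806). Of the DHS-free GR peaks, 10.6% at a TSS and 3.27% elsewhere held the GC box, and 17.9% and 20.9% the full GRE (-3 points, -7.44 to 1.88).

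The share with a full GRE was higher farther from DHSs. It was 11.5% of the 393 DHS-free GR peaks within 100 bases, 17.8% of the 309 farther but within 500 bases, 24.5% of the 625 farther but within 5000 bases and 49% of the 49 beyond (24 peaks, 35.6 to 62.5). Above 500 bases it was 26.3%, 14.8 points more than within 100 bases (10.1 to 19.2). The FOX site did not follow a single order, with 27.8%, 37.8%, 39.2% and 29.7% of 324, 135, 237 and 37 DHS-free FOXO1 peaks. It was in 38% above 500 bases, 10.2 points more than within 100 bases (2.64 to 17.6). The GC box in FOXO1 peaks was less frequent above 500 bases, at 7.3% against 18.5% (-11.2 points, -16.5 to -5.87). The TSS share and the median GC content, given above, differed between these distance ranges as well, and their part in these differences was not tested.

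**Figure D4:**
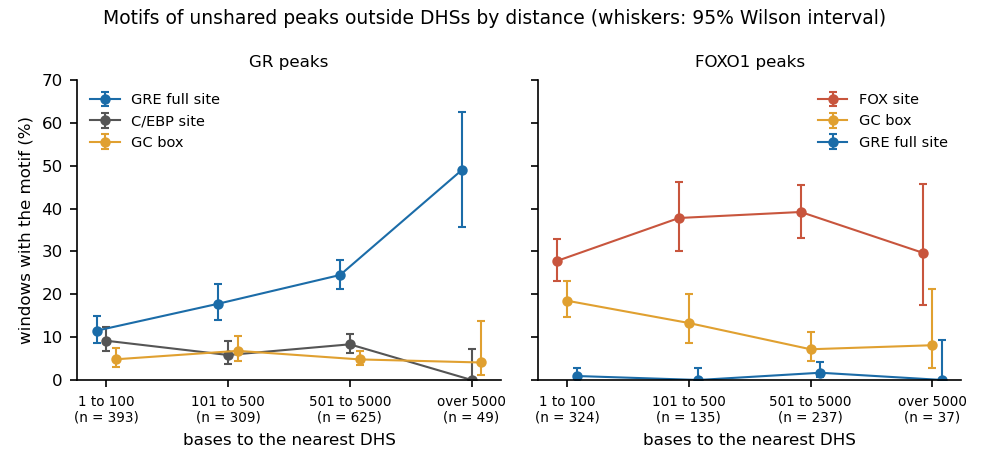
Share of DHS-free GR peaks (left) and DHS-free FOXO1 peaks (right) with a motif (vertical axis, %, with 95% Wilson intervals) in 4 bins of distance to the nearest DHS (horizontal axis, bases). The full GRE goes from 11.5% to 49% of GR peaks, and the FOX site peaks at 39.2% of FOXO1 peaks.

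The sites stood near the peak centres. Of 281 full GREs in the DHS-free GR peaks, 227 (80.8%, 75.8 to 85) had their middle within 25 bases of the peak centre, at a median of 11.5 bases. In unshared GR peaks in DHSs it was 77.2%, and in all DHSs 28.5%. Of 260 FOX sites in the DHS-free FOXO1 peaks, 127 (48.8%, 42.8 to 54.9) did, at a median of 26.5 bases, against 25.9% in all DHSs. The GREs were of many sequences, with 261 distinct ones among the 281 when 1 base on either side was counted, 245 of them seen once and none more than 4 times. At the variable base of the half-site, A was found in 42.5% (38.5 to 46.7) of the half-sites in DHS-free GR peaks and in 33.7% (29.7 to 38) of those in unshared GR peaks in DHSs. A stood at both in 18.1% and 11.4% of the sites.

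Of 22113 genes placed in mm9, 2228 (10.1%) had a TSS within 50 kb of a DHS-free GR peak and 1615 (7.3%) within 50 kb of a DHS-free FOXO1 peak. Most (82.4% and 75%) also had, within 50 kb, a peak of the other factor or a peak of the same factor that was not DHS-free. Only 393 and 403 genes had none of these, and they are called GR-alone and FOXO1-alone genes. Such a gene may have more than 1 DHS-free peak of the same factor within 50 kb. Within 2 kb of the peaks were 358 and 343 genes. In the unfed mice at ZT14, 2 libraries prepared by ribosomal depletion, the median RNA level near DHS-free GR peaks was 2.52 and 2.67 RPKM (reads scaled by transcript length and by the size of the library), and 1.98 and 2.08 RPKM near DHS-free FOXO1 peaks. Over all placed genes it was 0.315 and 0.357 RPKM. Genes within 2 kb were higher still, at 5.9 and 6.63 RPKM for GR and 4.23 and 4.52 RPKM for FOXO1. GR-alone genes stood at 1.11 and 1.28 RPKM, FOXO1-alone genes at 0.785 and 0.834 RPKM, genes with other peaks only at 1.42 and 1.49 RPKM, and genes without a peak at 0.019 and 0.031 RPKM.

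The RNA comparisons were made with limma on log2(RPKM + 0.5), which is the scale of every log2 fold change, with Benjamini-Hochberg adjustment over all genes tested and a threshold of 0.05 on the adjusted p. The p-values measure the spread between these mice. Most counts under other fits, or with a mouse left out, are given without the share over all genes in that fit. Such counts show how far a count moves with the processing, and not an excess near DHS-free peaks. The 1-read step of the RPKM values differed up to 2.08-fold between the 20 libraries of injected mice, 1.89-fold in the L-GRKO experiment and 1.23-fold in the L-IRSdKO experiment. Nr3c1 fell in L-GRKO liver from 14.2 ± 1.55 to 4.41 ± 0.637 RPKM (SD, n = 4; -1.58, limma adjusted p = 6.8e-05). Irs1 fell in L-IRSdKO liver from 4.03 ± 1.22 to 0.199 ± 0.082 RPKM (-2.66, limma adjusted p = 9.2e-04), and Irs2 was 2.19 ± 2.31 and 0.773 ± 0.337 RPKM (-0.79, limma adjusted p = 0.31). Foxo1 was 3.29 RPKM in L-IRSdKO mouse 1 and 16 to 19.9 RPKM in the other L-IRSdKO mice, and without that mouse its log2 fold change of -0.50 became 0.07. All 6 hepatocyte markers were present in every group, with summed levels of 32251 to 76551 RPKM but only 2345 to 2974 RPKM in the whole L-IRSdKO experiment, controls included. No listed marker of Kupffer, endothelial, stellate, lymphoid and bile duct cells was at 0 in all mice of a group. In such bulk samples, fewer cells of a type and less RNA per cell cannot be told apart.

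The meal comparison asked which genes differ between fed and unfed vehicle-injected mice. Among the tested genes, 3.13% changed, 2.55% upward and 0.578% downward. Near DHS-free GR peaks 64 of 1693 tested genes changed (3.78%, 41 up and 23 down), and near DHS-free FOXO1 peaks 43 of 1170 (3.68%, 29 up and 14 down), total shares close to that of all genes. Of the genes with other GR or FOXO1 peaks only, 136 of 4545 changed (2.99%). Falls were 23 of the 64 and 14 of the 43, against 65 of 352 called over all genes and 35 of 136 near other peaks only. Of the genes called near GR and FOXO1, 64.1% and 67.4% rose, and 38.5% and 38.9% after scaling the libraries to a common median ratio, which moved the median of all genes from 0.10 to 0.01. Of the GR-alone genes 8 of 258 rose (3.1%) and of the FOXO1-alone genes 5 of 252 (1.98%), and none fell. The median log2 fold change was 0.04 near GR, 0.05 near FOXO1 and 0.10 over all genes. With a term for the library series the counts were 170 and 107, and in mice 1 to 3 alone 128 and 86. Of 5 Kupffer cell markers Cd5l and Adgre1 rose as well. The marker sums were 45.1 to 58.7 RPKM in unfed and 62.6 to 98.5 RPKM in fed mice, and their part was not tested. Without fed mouse 1, 2 or 3, or unfed mouse 1, 2 or 3, the counts were 22 to 41 near GR and 12 to 23 near FOXO1.

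Id3, an inhibitor of helix-loop-helix factors and a GR-alone gene with its peak 2.7 kb upstream, had 16.9, 17.9, 30.2 and 28.4 RPKM in unfed mice and 39.2, 50.1, 49.5 and 61.3 RPKM in fed mice. Every fed mouse was above every unfed mouse (2.93% of all genes tested passed without overlap), and Id3 rose by 1.11 (SE 0.21, limma adjusted p = 0.0098). Usp36, a nucleolar deubiquitinase, rose by 0.62 (SE 0.10, limma adjusted p = 0.0054), with 3.5 to 4.49 RPKM in unfed and 5.57 to 6.84 RPKM in fed mice. Pdia3, an oxidoreductase that folds proteins in the endoplasmic reticulum (ER), had 103 ± 2.19 RPKM in unfed and 164 ± 15 RPKM in fed mice (SD, n = 4; 0.66, limma adjusted p = 0.026). Its peak lay 49.3 kb away, inside another gene, Mfap1b, and within 2 kb of a TSS. The call of Pdia3 was lost without fed mouse 2 or unfed mouse 1, 2 or 3 (limma adjusted p = 0.062 to 0.078) and without the filter on low values (0.056).

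Among the FOXO1-alone genes, Txlna, which codes for a syntaxin-binding protein and had its peak 13 bases from the TSS, rose by 0.74 (SE 0.13, limma adjusted p = 0.0067). It had 5.84, 5.72, 6.12 and 5.06 RPKM in unfed and 9.63, 11.1, 8.65 and 9.97 RPKM in fed mice, without overlap. Ficd, an ER enzyme that modifies the chaperone BiP, had its peak 38 kb away, inside another gene, Iscu, and within 2 kb of a TSS. Ficd rose by 0.78 (SE 0.21, limma adjusted p = 0.044), from 2.7 ± 0.314 to 5.04 ± 1.08 RPKM (SD, n = 4). Its call was lost without fed mouse 2, 3 or 4 or any unfed mouse (limma adjusted p = 0.055 to 0.13), and with median-ratio scaling (0.087). Actg1, cytoplasmic actin, rose by 1.23 (SE 0.25, limma adjusted p = 0.013) from low levels of 0.145 to 0.358 RPKM to 0.971 to 1.74 RPKM. Without unfed mouse 2 its limma adjusted p was 0.056, and reads shared with near-identical copies make its level uncertain.

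The dex comparison asked what a glucocorticoid changes in fed mice, against the same fed vehicle mice. Among the tested genes 3.19% changed, 1% upward and 2.19% downward. Near DHS-free GR peaks 95 of 1693 changed (5.61%, 49 up and 46 down), and within 2 kb of them 27 of 321 (8.41%, 16 up and 11 down). Near DHS-free FOXO1 peaks 52 of 1170 changed (4.44%, 13 up and 39 down), and within 2 kb 13 of 312 (4.17%). GR-alone genes changed in 4 of 258 cases (1.55%, 1 up and 3 down) and FOXO1-alone genes in 9 of 252 (3.57%, all down). Of the genes with other GR or FOXO1 peaks only, 158 of 4545 changed (3.48%, 48 up and 110 down). The median log2 fold change was -0.04 near GR, -0.06 near FOXO1 and -0.10 over all genes. Median-ratio scaling moved the share of rises from 51.6% to 76.1% near GR and from 25% to 51.5% near FOXO1. It left 33 calls near FOXO1 and 266 over all genes, against 359 over all genes before. With a term for the library series the counts near GR and FOXO1 were 227 and 123, and in mice 1 to 3 alone 188 and 115. With the 2 groups fitted alone the counts were 35 and 11, and without vehicle mouse 2 or dex mouse 1 or 2 they were 47 to 60 and 22 to 25.

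Atp1b1, a subunit of the sodium pump and the GR-alone gene with the largest dex change, had 39.5, 33.4, 38.7 and 45.3 RPKM in vehicle mice and 106, 111, 87.8 and 68.6 RPKM in dex mice. All dex mice were above all vehicle mice (2.88% of all genes tested passed without overlap), a rise of 1.22 (SE 0.14, limma adjusted p = 8.4e-05), and its peak is the one printed above with a full GRE. Id3 went from 39.2 to 61.3 RPKM down to 18.2 to 27 RPKM and fell by 1.17 (SE 0.21, limma adjusted p = 0.0051). Fnbp1l, a membrane-bending protein of the actin cortex, fell by 0.63 (limma adjusted p = 0.039) from 5.68 ± 0.97 to 3.46 ± 0.444 RPKM (SD, n = 4). That call was lost with median-ratio scaling (limma adjusted p = 0.079) and without vehicle mouse 1, 2 or 4 or dex mouse 1, 2 or 4 (0.066 to 0.13).

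The FOXO1-alone genes with the largest dex changes included genes of endothelial and blood cells. Adgrl4, an adhesion receptor of endothelium, fell by 0.82 (limma adjusted p = 0.015), with 2.94 to 5.69 RPKM in vehicle and 1.65 to 2.87 RPKM in dex mice. Gimap4, a GTPase of lymphocytes, fell by 0.81 (limma adjusted p = 0.035), from 9.29 ± 0.935 to 5.23 ± 1.65 RPKM (SD, n = 4). Ppfibp2, a liprin with its peak inside the gene, fell by 0.78 (limma adjusted p = 0.035), from 3.85 ± 1.16 to 2.01 ± 0.548 RPKM (SD, n = 4). Of the 4 endothelial markers, Ptprb, Kdr and Clec4g also fell, and their summed level was 55.6 to 67 RPKM in vehicle and 36.8 to 53.5 RPKM in dex mice. Of 5 Kupffer cell markers Cd5l fell, with sums of 62.6 to 98.5 and 40.1 to 64.1 RPKM. Of 3 lymphocyte markers, 1 was tested and did not pass. Their part in these falls was not tested. The calls were lost without vehicle mouse 1 or 2 or dex mouse 1 or 2 for Adgrl4 (limma adjusted p = 0.051 to 0.069), without any mouse but vehicle mouse 3 and dex mouse 4 for Gimap4 (0.062 to 0.14), and without vehicle mouse 2, 3 or 4 or dex mouse 1 or 2 for Ppfibp2 (0.054 to 0.13). With median-ratio scaling Gimap4 (0.066) and Ppfibp2 (0.072) lost it, and with the 2 groups fitted alone Adgrl4 (0.11), Gimap4 (0.083) and Ppfibp2 (0.15).

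Genes with a DHS-free peak within 2 kb included Ddit4, an inhibitor of mTORC1, which had DHS-free peaks of both factors, 591 bases (GR) and 262 bases (FOXO1) upstream of its TSS. It had 3.83, 2.61, 5.46 and 6.13 RPKM in vehicle and 32.9, 30.2, 27.4 and 32.2 RPKM in dex mice, and rose by 2.70 (SE 0.29, limma adjusted p = 8.4e-05). Arrdc3, an adaptor of receptor trafficking whose FOXO1 peak is printed above, had 23.5, 19.1, 20.1 and 20.5 RPKM in vehicle and 1.6, 1.62, 3.04 and 5.19 RPKM in dex mice. It fell by 2.79 (SE 0.34, limma adjusted p = 1.6e-04). Other peaks lay within 50 kb of both genes, 7.96 kb from Ddit4 and 4.45 kb from Arrdc3.

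The S961 comparison asked what follows from blocking the insulin receptor in fed mice, with the same vehicle mice as controls. Among the tested genes 1.9% changed, 0.942% upward and 0.96% downward. Near DHS-free GR peaks 60 of 1693 changed (3.54%, 39 up and 21 down), and within 2 kb 22 of 321 (6.85%, 18 up and 4 down). Near DHS-free FOXO1 peaks 32 of 1170 changed (2.74%, 19 up and 13 down), and within 2 kb 9 of 312 (2.88%). GR-alone genes changed in 5 of 258 cases (1.94%) and FOXO1-alone genes in 2 of 252 (0.794%, both down). Of the genes with other GR or FOXO1 peaks only, 92 of 4545 changed (2.02%, 50 up and 42 down). The median log2 fold change was -0.06 near either factor and -0.08 over all genes. With the 2 groups fitted alone, 4 and 3 genes passed, and with a term for the library series 125 and 62 (64 and 30 in mice 1 to 3 alone). Of 5 Kupffer cell markers Cd5l and Adgre1 fell. The marker sums were 62.6 to 98.5 RPKM in vehicle and 42.7 to 64.5 RPKM in S961 mice, and their part was not tested. Median-ratio scaling moved the share of rises from 65% to 75.8% near GR and from 59.4% to 72.2% near FOXO1. Leaving out vehicle mouse 1 or 2 or S961 mouse 2 or 4 gave 30 to 34 near GR and 19 to 21 near FOXO1, and without vehicle mouse 3 the latter was 21.

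Mxd1, a repressor that pairs with MAX and a GR-alone gene, had 1.8, 1.76, 1.3 and 2.24 RPKM in vehicle and 0.733, 0.891, 0.73 and 0.865 RPKM in S961 mice. The groups did not overlap (1.79% of all genes tested passed without overlap), and it fell by 0.79 (SE 0.14, limma adjusted p = 0.0056). Tmem198b and Mmp19, a matrix metalloproteinase, share 1 DHS-free GR peak with a full GRE, 24.1 kb downstream of the TSS of Tmem198b and 11.3 kb upstream of that of Mmp19. They fell by 0.62 and 0.58 (limma adjusted p = 0.0092 and 0.011), Mmp19 from 17.5 to 18.7 RPKM in vehicle to 10.8 to 13.6 RPKM in S961 mice. Fitted with the 2 groups alone, these 3 genes had limma adjusted p-values of 0.11, 0.1 and 0.097. Of the FOXO1-alone genes, Ficd fell by 0.88 (limma adjusted p = 0.031) and Slc11a2, an iron transporter, by 0.58 (limma adjusted p = 0.042), from 8.41 ± 1.29 to 5.49 ± 1.08 RPKM (SD, n = 4). The peak of Slc11a2 lay in an exon of another gene, 5330439K02Rik, 6 bases from a DHS. The calls were lost without vehicle mouse 2, 3 or 4 or S961 mouse 2, 3 or 4 for Ficd (limma adjusted p = 0.067 to 0.094), and without vehicle mouse 1, 2 or 3 or S961 mouse 3 or 4 for Slc11a2 (0.092 to 0.14), which also lost it with median-ratio scaling (0.061). With the 2 groups fitted alone both lost it (0.094 and 0.26).

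The L-GRKO comparison asked which genes depend on hepatocyte GR in unfed mice. Among the tested genes 6.68% changed, 4.46% upward and 2.22% downward. Near DHS-free GR peaks 198 of 1720 changed (11.5%, 104 up and 94 down), and within 2 kb 42 of 324 (13%, 18 up and 24 down). Near DHS-free FOXO1 peaks 116 of 1206 changed (9.62%, 73 up and 43 down), and within 2 kb 35 of 317 (11%). Among GR-alone genes 11 of 264 changed (4.17%, 10 up and 1 down), and among FOXO1-alone genes 4 of 258 (1.55%, all up). Of the genes with other GR or FOXO1 peaks only, 398 of 4650 changed (8.56%, 269 up and 129 down), and of the genes without a peak 76 of 3961 (1.92%). The median log2 fold change was 0.07 near GR, 0.10 near FOXO1 and 0.08 over all genes. Median-ratio scaling moved the share of rises from 52.5% to 35.1% near GR and from 62.9% to 44.6% near FOXO1, with the median of all genes at -0.00. Leaving out GFP mouse 2 or CRE mouse 1 or 2 gave 118 to 131 near GR and 60 to 71 near FOXO1, and without CRE mouse 3 the latter was 75.

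Id3 had 27, 14.7, 22.9 and 21.8 RPKM in GFP mice and 83.2, 92.5, 68.7 and 81.7 RPKM in L-GRKO mice, and rose by 1.92 (SE 0.17, limma adjusted p = 1.6e-04). It was thus higher without hepatocyte GR and lower after dex, with no overlap of the groups in either comparison, and in L-GRKO liver 6.37% of all genes tested passed without overlap. Rims4, of a family of presynaptic proteins, rose by 1.01 (limma adjusted p = 0.011) from 0.49 ± 0.149 to 1.52 ± 0.41 RPKM (SD, n = 4). Chac1, which breaks down glutathione, was the only GR-alone gene that fell, by 1.30 (SE 0.34, limma adjusted p = 0.047), with 1.46, 3.49, 1.59 and 5.76 RPKM in GFP and 0.577, 1.11, 1.04 and 0.553 RPKM in L-GRKO mice. Its call was lost with median-ratio scaling (limma adjusted p = 0.053) and without GFP mouse 2 or 4 or any CRE mouse (0.072 to 0.15). Among the FOXO1-alone genes, Nrp1, a coreceptor for semaphorins and VEGF, rose by 0.81 (SE 0.15, limma adjusted p = 0.0091), with 8.25 to 10.3 RPKM in GFP and 12.3 to 19.6 RPKM in L-GRKO mice. 2610507I01Rik rose by 0.74 (limma adjusted p = 0.0072). Mospd3, with its peak 146 bases from the TSS, rose by 0.52 (limma adjusted p = 0.02), and lost the call without GFP mouse 2 (0.054) or CRE mouse 2 (0.07). Without the filter on low values Rims4 (limma adjusted p = 0.084), Nrp1 (0.092), 2610507I01Rik (0.061), Chac1 (0.28) and Mospd3 (0.097) lost their calls. Of 4 stellate cell markers Lrat rose as well, with marker sums of 32.9 to 50.1 RPKM in GFP and 47.4 to 70.3 RPKM in L-GRKO mice. Of 6 hepatocyte markers Cps1 fell. The part of these markers was not tested.

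Genes with a DHS-free GR peak within 2 kb also fell in L-GRKO liver, and each of those named here had another peak within 50 kb. Gadd45g, a stress-induced growth arrest gene with its peak 1.61 kb upstream, had 73.4, 39.7, 26.1 and 36.1 RPKM in GFP and 1.79, 2.55, 3.71 and 3.58 RPKM in L-GRKO mice (-3.64, SE 0.29, limma adjusted p = 8.8e-05). Fam107a, an actin-associated protein, had 7.6, 1.85, 2.18 and 1.97 RPKM in GFP and at most 0.084 RPKM in L-GRKO mice (-2.66, SE 0.34, limma adjusted p = 0.0017), and it was listed at 0 in 1 of them. Mup20, a major urinary protein that acts as a pheromone, fell by 3.70 (limma adjusted p = 0.0032), with 2201 to 5558 and 158 to 1124 RPKM, and reads shared with other Mup genes make its level uncertain. Without the filter on low values Mup20 (limma adjusted p = 0.08) and Fam107a (0.053) lost their calls. Il1r1, the interleukin-1 receptor, with a DHS-free FOXO1 peak 100 bases from its TSS and a DHS-free GR peak 4.08 kb away, fell by 2.55 (limma adjusted p = 4.9e-04), from 14.3 to 38.5 RPKM down to 2.46 to 3.46 RPKM.

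The L-IRSdKO comparison asked which genes depend on hepatic IRS1 and IRS2 in fed, dex-injected mice. Among the tested genes 17.4% changed, 9.06% upward and 8.31% downward. Near DHS-free GR peaks 441 of 1815 changed (24.3%, 191 up and 250 down), and within 2 kb 93 of 335 (27.8%, 46 up and 47 down). Near DHS-free FOXO1 peaks 267 of 1290 changed (20.7%, 134 up and 133 down), and within 2 kb 56 of 328 (17.1%). GR-alone genes changed in 56 of 282 cases (19.9%, 20 up and 36 down) and FOXO1-alone genes in 47 of 291 (16.2%, 28 up and 19 down). Of the genes with other GR or FOXO1 peaks only, 954 of 5023 changed (19%, 491 up and 463 down). The median log2 fold change was -0.02 near GR, 0.01 near FOXO1 and 0.03 over all genes. Without L-IRSdKO mouse 1 the counts were 626 and 386, and without L-IRSdKO mouse 2, 3 or 4 they were 227 to 243 and 134 to 142.

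In L-IRSdKO liver 15.3% of all genes tested passed without overlap of the groups. Cyp2b9, a cytochrome P450, was the GR-alone gene with the largest such change, at 0 to 0.266 RPKM in floxed and 16.4, 66.3, 93.2 and 61.4 RPKM in L-IRSdKO mice (6.32, SE 0.46, limma adjusted p = 4.5e-04). It was listed at 0 in 1 floxed mouse, and reads shared with other Cyp2b genes make it uncertain. Egr1, an immediate early factor, rose by 3.02 (SE 0.20, limma adjusted p = 3.4e-04), with 2.68, 2.12, 4.24 and 2.02 RPKM in floxed and 23.5, 26.6, 29.1 and 21.8 RPKM in L-IRSdKO mice. Spp1, the matrix protein osteopontin, fell by 1.65 (SE 0.32, limma adjusted p = 0.011), with 16.3, 40.7, 22.8 and 39.3 RPKM in floxed and 5.4, 11, 8.87 and 9.74 RPKM in L-IRSdKO mice. Its DHS-free GR peak is printed above, and without the filter on low values its call was lost (limma adjusted p = 0.058).

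Among the FOXO1-alone genes, Zfp169, a zinc finger gene, had 1.78, 2.01, 1.83 and 1.68 RPKM in floxed and 4.07, 5.7, 4.96 and 5.62 RPKM in L-IRSdKO mice (1.26, SE 0.14, limma adjusted p = 0.0019). Adgrg1, an adhesion receptor, rose by 1.23 (SE 0.16, limma adjusted p = 0.0031), with 1.08 to 1.25 and 2.79 to 4.21 RPKM. Igf2bp3, an RNA-binding protein of fetal tissues, rose by 2.09 (SE 0.47, limma adjusted p = 0.019), with at most 0.287 RPKM in floxed mice, 0.441 RPKM in L-IRSdKO mouse 1 and 3.49 to 3.82 RPKM in the other 3. Its call was lost without L-IRSdKO mouse 2, 3 or 4 (limma adjusted p = 0.059 to 0.06) and without the filter on low values (0.078). Stab2 and Ptprb of 4 endothelial, Clec4f of 5 Kupffer cell and Dcn of 3 tested stellate cell markers rose in the same comparison. Of 6 hepatocyte markers Ttr and Serpina1c fell. Marker sums were 83.2 to 110 and 86.7 to 130 RPKM for endothelium and 141 to 262 and 248 to 318 RPKM for Kupffer cells, and their part was not tested.

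Within 2 kb of DHS-free FOXO1 peaks, Leap2, a liver peptide that blocks the ghrelin receptor, fell by 2.25 (SE 0.46, limma adjusted p = 0.014), with 46.7, 26.5, 26.4 and 33.3 RPKM in floxed and 18.3, 3.84, 7.05 and 3.16 RPKM in L-IRSdKO mice. L-IRSdKO mouse 1 was the nearest to the floxed mice. Fmo2, a flavin monooxygenase whose TSS is covered by its peak, rose by 2.14 (SE 0.28, limma adjusted p = 0.0033), from 17.4 ± 4.98 to 79.8 ± 24.3 RPKM (SD, n = 4). Nat8f5, an acetyltransferase gene 466 bases from a DHS-free GR peak, fell by 4.35 (limma adjusted p = 4.8e-04), from 27.6 to 45.5 RPKM to 0.556 to 2.72 RPKM, and near-identical family members make it uncertain. Other peaks lay near these genes too, over the TSS of Leap2 and thus closer than its DHS-free peak, 6.18 kb from Fmo2 and 2.64 kb from Nat8f5. Without the filter on low values Leap2 lost its call (limma adjusted p = 0.069).

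**Figure D5:**
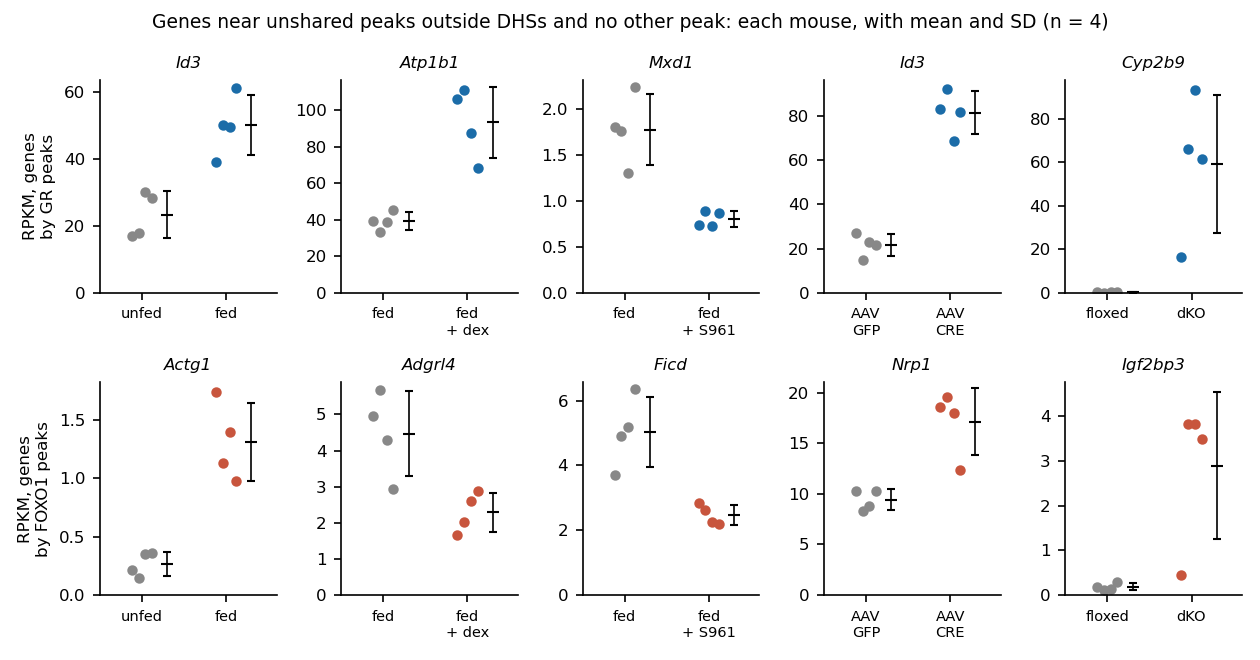
RNA level (vertical axes, RPKM) of GR-alone genes (top row) and FOXO1-alone genes (bottom row) in each mouse (points) with the mean and SD (n = 4), for the meal, dex, S961, L-GRKO and L-IRSdKO comparisons from left to right. Id3 is at 68.7 to 92.5 RPKM in L-GRKO mice and 14.7 to 27 RPKM in GFP mice, and in all 10 panels the groups do not overlap.

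Of 25 known GR target genes, 17 had a DHS-free peak within 50 kb (16 of GR, 6 of FOXO1), and every one of them also had another peak. The list was made of known targets, so its directions are no independent evidence, and genes with and without a DHS-free peak were not tested against each other. The DHS-free peak was the nearest peak in 6: Per1, Sgk1, Dusp1, Gadd45b, Sds and Por. After dex, 9 of the 17 rose and none fell, with a median log2 fold change of 0.87 against -0.10 over all genes, of which 1% rose. Of the 8 listed genes without a DHS-free peak, 3 rose and none fell (median 0.50). In L-GRKO liver 10 of the 17 fell and none rose, with a median of -1.11 against 0.08 over all genes, of which 2.22% fell. Of the other 8, 5 fell and 1 rose (median -1.04). Of these genes, Sds, serine dehydratase, had its peak 3.46 kb away and rose after dex from 133 ± 27.5 to 379 ± 141 RPKM (SD, n = 4; 1.44, limma adjusted p = 0.0035), a call lost with the 2 groups fitted alone (0.059). In L-GRKO liver Sds fell by 1.71 (limma adjusted p = 5.6e-04). Sgk1, a kinase of ion transport, with its peak 134 bases from the TSS, rose by 1.92 after dex (limma adjusted p = 7.6e-04), with 4.36 to 10.5 RPKM in vehicle and 19.6 to 57.8 RPKM in dex mice, and its value in L-GRKO liver was 0.08 (limma adjusted p = 0.84). Dusp1, a MAP kinase phosphatase, rose by 1.67 after dex (limma adjusted p = 7.7e-04). Gadd45b, near a DHS-free FOXO1 peak, rose by 2.37 (limma adjusted p = 0.0085). In L-GRKO liver neither Dusp1 nor Gadd45b passed (-1.25 and 0.07, limma adjusted p = 0.095 and 0.96). Por, the electron donor of cytochromes P450, had a peak over its TSS and fell by 0.61 in L-GRKO liver (limma adjusted p = 0.024), and the clock gene Per1 fell by 0.84 (limma adjusted p = 0.019). After dex neither Por nor Per1 passed (0.31 and 0.58, limma adjusted p = 0.43 and 0.28), and the lost calls that follow are those in L-GRKO liver. Without 1 mouse each, Por lost its call (GFP mouse 3 or CRE mouse 1, 2 or 4, limma adjusted p = 0.051 to 0.074) and so did Per1 (CRE mouse 2, 0.059), and without the filter on low values both lost it (0.15 and 0.14).

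The other members of the list had a nearer peak of another class. After dex, Lcn2, Mt1, Mt2, Tsc22d3 and Lpin1 rose by 3.29, 1.91, 2.10, 0.87 and 0.93 (limma adjusted p = 0.007, 0.017, 0.012, 0.027 and 0.026). Without 1 mouse the calls of Lpin1 (vehicle mouse 1, 2 or 4 or dex mouse 1, 2 or 3), Mt1 (vehicle or dex mouse 1 or 2), Mt2 (dex mouse 1 or 2) and Tsc22d3 (vehicle mouse 2 or 3) were lost, with limma adjusted p-values of 0.05 to 0.098. With the 2 groups fitted alone these 4 genes had limma adjusted p-values of 0.16, 0.089, 0.054 and 0.16, and without the filter on low values 0.078, 0.066, 0.051 and 0.08. Mt1 and Mt2 are near-identical metallothionein genes, and Lcn2 was 61.6 RPKM in vehicle mouse 3 and 11.8 to 14.3 RPKM in the other vehicle mice. Lcn2, Mt1 and Mt2 did not pass in L-GRKO liver (-0.46, -1.11 and -1.23, limma adjusted p = 0.51, 0.23 and 0.13). In L-GRKO liver Lpin1, Zbtb16, Fkbp5 and Tsc22d3 fell by 4.50, 3.46, 2.64 and 1.81 (limma adjusted p = 6.2e-07, 6.6e-06, 3.8e-05 and 0.004), and Pck1, Cebpb and Tdo2 by 0.73, 0.65 and 0.63 (0.039, 0.038 and 0.031). The calls of Pck1, Cebpb and Tdo2 were lost without 7, 6 and 5 of the 8 mice in turn, with limma adjusted p-values of 0.051 to 0.12, and without the filter on low values Pck1 (0.29), Cebpb (0.22), Tdo2 (0.21) and Tsc22d3 (0.082) lost them. After dex, Fkbp5, Pck1, Zbtb16, Tdo2 and Cebpb did not pass (0.58, 0.64, 0.46, 0.41 and 0.70, limma adjusted p = 0.083, 0.074, 0.31, 0.16 and 0.27). Angptl4 passed in neither comparison (-0.05 after dex and -1.17 in L-GRKO liver, limma adjusted p = 0.95 and 0.11).

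Of 25 known FOXO1 and insulin response genes, 13 had a DHS-free peak within 50 kb (11 of GR, 4 of FOXO1), again all with another peak. The DHS-free peak was the nearest in 3: Foxo3, Bcl6 and Apoc3. None of these 3 passed the threshold with S961 or in L-IRSdKO liver. Nor did Insr, the only other listed gene with a DHS-free FOXO1 peak within 50 kb. With S961, 3 of the 13 rose and none fell, with a median log2 fold change of 0.25 against -0.08 over all genes, of which 0.942% rose. Of the 12 listed genes without a DHS-free peak 1 fell and none rose (median 0.16). In L-IRSdKO liver 4 of the 13 rose and none fell, with a median of 0.21 against 0.03 over all genes, of which 9.06% rose. Of the other 12, 4 rose and 3 fell (median 0.09). This list too was made of known response genes, and its parts were not tested against each other. G6pc, the last enzyme of glucose production, rose by 1.80 with S961 (limma adjusted p = 0.0083) and by 0.98 in L-IRSdKO liver (limma adjusted p = 0.0067). Ppargc1a, a coactivator of gluconeogenesis, rose by 0.81 and 2.18 (limma adjusted p = 0.0092 and 0.002), and Txnip, which restrains glucose uptake, by 2.30 and 2.39 (limma adjusted p = 0.0042 and 0.0019). Pdk4, an inhibitor of pyruvate oxidation, rose by 3.56 in L-IRSdKO liver (limma adjusted p = 0.0043), and its value with S961 was 2.16 (limma adjusted p = 0.056). The DHS-free peaks within 50 kb of G6pc, Ppargc1a, Txnip and Pdk4 were GR peaks, and none was a FOXO1 peak. With the 2 groups fitted alone, G6pc (0.094) and Ppargc1a (0.093) lost the S961 call.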

How the data were processed

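The authors deposited peak and DHS positions (mm9) and gene tables in RPKM. Per the study's methods, HOMER called peaks against input (FDR 0.001, tag threshold 25), and STAR mapped reads. The antibodies against GR are given differently in the labels and the methods. The members and lists were chosen with earlier results of these data known. Positions were compared in Python 3.11.15 with GENCODE vM1 on NCBIM37, and 19 motifs were searched on both strands in 200 bases around each centre (for DHSs, the same window). Wilson and Newcombe 95% intervals were used. RNA was tested with limma 3.58.1 (R 4.3.3) on log2(RPKM + 0.5), leaving out genes whose mean over the libraries fitted was under 0.5 RPKM. In simulated data without a library series effect, 84% to 97% of planted log2 changes of 1.5 were called. False calls were 7.46% (meal), 5.08% (dex), 6.9% (S961), 3.48% (L-GRKO) and 4.55% (L-IRSdKO) of the calls. Injected mice were fitted together (20 libraries, dex plus S961 included), and the meal, dex and S961 comparisons share the fed vehicle mice. Named genes were the 3 largest changes per comparison and factor among genes near a member only, without overlap of the groups, the 5 largest with a member within 2 kb per factor, the targeted genes and the listed genes near a member. Gene names were matched through the RefSeq table of GRCm38.p6, and its coordinates were not used.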

Additional observations from a re-analysis of the deposited data

Results flagged for a closer look

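In 9 of 140 groups of 4 mice, a named gene had 1 mouse far from the other 3, where chance gives about 7. Near DHS-free peaks these were Fam107a (7.6 RPKM in GFP mouse 1, 1.85 to 2.18 in the others), Fmo2 (44.2 RPKM in L-IRSdKO mouse 1, 85.1 to 96.9 in the others), Igf2bp3 (0.441 RPKM in L-IRSdKO mouse 1, 3.49 to 3.82 in the others), Lcn2 (61.6 RPKM in fed vehicle mouse 3, 11.8 to 14.3 in the others) and Tdo2 (1710 RPKM in GFP mouse 1, 1125 to 1199 in the others). Among the targeted genes, L-IRSdKO mouse 1 stood low for Foxo1 (3.29 RPKM, others 16 to 19.9) and Irs2 (0.272 RPKM, others 0.886 to 1). Irs1 was high in L-IRSdKO mouse 3 (0.321 RPKM, others 0.149 to 0.17) and low in floxed mouse 1 (2.21 RPKM, others 4.5 to 4.73).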

How the results depend on the processing

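Of 71 named gene comparisons, 66 passed the threshold, 35 of these lost it under at least 1 alternative, and none of the 66 changed sign. The only change of sign was Foxo1 in L-IRSdKO liver, 0.07 (limma adjusted p = 0.69) without L-IRSdKO mouse 1 and -0.74 at the other end of the range over omitted mice. The cause of the changes below was not tested. Most of the gene counts below are given without the share over all genes in the same fit.

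Requiring a DHS or peak to cover 50% of a peak left 2761 GR and 1837 FOXO1 peaks, counting gaps up to 500 bases as overlap 662 and 269, and gaps up to 100 bases 408 FOXO1 peaks. The TSS share was 21.1% (GR) and 37.7% (FOXO1) with protein-coding TSSs, and for FOXO1 35.5% and 29% of peaks at least 100 and 500 bases from DHSs. At those distances the GRE share was 23.6% and 26.7% and the FOX share 38% and 38.7%, and in 100-base windows the FOX share was 24.4%. The alternative with soft-masked repeats was not run, since the genome carried no mask. A filter on repeated 18-base words, chosen after seeing the data, moved neither motif share beyond its interval.

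Counts of changed genes near GR and FOXO1 peaks were, without the filter on low values, 35 and 17 (meal), 60 and 28 (dex), 36 and 18 (S961), 45 and 27 (L-GRKO) and 193 and 125 (L-IRSdKO). With the 2 groups alone they were 35 and 11 (dex) and 4 and 3 (S961). With a term for the library series (mice 1 to 3 against mouse 4, by the library numbers in the labels) they were 170 and 107 (meal), 227 and 123 (dex) and 125 and 62 (S961). In the first library series alone, chosen after seeing the data, they were 128 and 86 (meal) and 188 and 115 (dex). Median-ratio scaling gave 33 near FOXO1 (dex), with 266 called over all genes. Within 20 kb, FOXO1 counts were 33 (dex), 19 (S961), 77 (L-GRKO) and 165 (L-IRSdKO), and the GR count in L-IRSdKO was 290. Within 100 kb, FOXO1 counts were 68 (meal), 53 (S961) and 402 (L-IRSdKO). The mean of the median RNA levels was 2.6 RPKM (GR) and 2.03 (FOXO1), 4.49 and 2.99 within 20 kb and 1.89 and 1.5 within 100 kb.

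With the replicate number as a block, the counts were 159 and 95 (meal), 205 and 107 (dex), 112 and 48 (S961), 175 and 84 (L-GRKO) and 320 and 177 (L-IRSdKO). The numbers do not pair the mice throughout: same-numbered mice correlated from -0.12 to 0.61, and not every mouse correlated best with its own number. Mouse 4, of the other library series, did so in the meal, dex and S961 comparisons (0.51, 0.49 and 0.61). In these comparisons mice 1 and 3 did so in some cases and mouse 2 in none.

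Leaving out 1 mouse gave 22 to 65 and 12 to 45 (meal), 47 to 124 and 22 to 64 (dex), 30 to 80 and 19 to 41 (S961), 118 to 176 and 60 to 103 (L-GRKO), and 227 to 626 and 134 to 386 (L-IRSdKO).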
